A study of Mus musculus with 18 samples.

Results

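This account concerns CTCF binding at the Rab genes, the family of small GTPases that steer vesicles between membranes, in mouse embryonic stem cells. Of 21896 protein-coding genes in the RefSeq table of mm10 (GRCm38.p6), 59 carry a symbol made of Rab and a number. A called interval was taken as a Rab region when any of its summits lay inside such a gene or within 10 kb of either end, so called positions and gene names chose the members. This gave 197 of 71075 regions (0.277%) in wild-type cells, 170 of 62238 (0.273%) in the triple knockout and 167 of 59372 (0.281%) in the sextuple knockout. Joined where they overlapped across genotypes, they formed 224 of 78072 merged regions.

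CTCF chromatin immunoprecipitation and sequencing (ChIP-seq) was carried out on 18 samples in 6 groups, 3 ChIP and 3 input replicates for each of 3 genotypes. The wild type (WT) was untargeted, the TKO line lacked Tet1, Tet2 and Tet3, and the SKO line lacked these 3 genes together with Dnmt1, Dnmt3a and Dnmt3b. All cells were kept in serum replacement medium with LIF on irradiated fibroblast feeders, and each genotype is 1 line, so the deleted genes and other differences between lines cannot be told apart. Peaks were called once per genotype on the pooled replicates, whose labels do not say whether they were separate cultures, and the lists do not show the deletions themselves. No spread between replicates or p-value between genotypes can be given.

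A Rab protein cycles between a GDP-bound form held in the cytosol and a GTP-bound form on a membrane, where it recruits tethers, motors and other effectors. Exchange factors load the GTP and GTPase-activating proteins end the active phase, and each compartment of the cell carries its own set of Rabs. CTCF is a zinc finger protein that binds DNA at a long motif and, with cohesin, anchors chromatin loops. A methylated CpG in the motif can weaken its binding; TET enzymes oxidise methylated cytosine and DNMT enzymes place the methyl group.

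Several Rab genes had a CTCF summit at the gene start itself, and the DNA just before those starts is shown because most of these summits lie in it. RefSeq promoter windows, from 250 bases before to 50 after an annotated start, were matched for 48 of the 59 genes (60 windows). A WT summit lay in 6 of the 60 windows (10.0%), against 7.29% of the 21262 windows of all protein-coding genes; for TKO it was 7 windows (11.7% against 7.22%) and for SKO 7 (11.7% against 7.07%). The stretches below are 120 bases each on the strand of the gene, 5′ to 3′, in build GRCm38.p6. Capitals mark matches to the core of the CTCF motif (CC, any 3 bases, AG, any 2 bases, GGC) on either strand, and to the shorter string CAGGGGGC on either strand, which was searched after the windows had been seen. The shorter string lies wholly within the longer match at Rab32 and Rab12, and apart from it, on the opposite strand, at Rab2b.
Rab2b, chr14:52279396-52279515, minus strand: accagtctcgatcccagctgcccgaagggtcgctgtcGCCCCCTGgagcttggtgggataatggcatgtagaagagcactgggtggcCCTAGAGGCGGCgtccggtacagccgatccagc
Rab32, chr10:10558208-10558327, minus strand: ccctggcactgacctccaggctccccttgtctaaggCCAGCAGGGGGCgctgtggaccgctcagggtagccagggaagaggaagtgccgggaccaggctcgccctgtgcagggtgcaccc
Rab12, chr17:66519751-66519870, minus strand: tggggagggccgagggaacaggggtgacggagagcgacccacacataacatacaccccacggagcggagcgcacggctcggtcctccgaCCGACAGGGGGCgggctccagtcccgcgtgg
Rab29, chr1:131867090-131867209, plus strand: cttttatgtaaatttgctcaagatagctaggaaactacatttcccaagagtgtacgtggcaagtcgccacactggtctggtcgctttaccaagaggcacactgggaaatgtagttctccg
Rab4b, chr7:27178998-27179117, minus strand: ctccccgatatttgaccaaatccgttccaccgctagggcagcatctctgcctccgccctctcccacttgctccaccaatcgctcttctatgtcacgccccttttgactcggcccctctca
Rab42, chr4:132303383-132303502, minus strand: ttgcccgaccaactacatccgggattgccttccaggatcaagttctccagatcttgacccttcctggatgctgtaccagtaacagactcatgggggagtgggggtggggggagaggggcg
Rab14, chr2:35201121-35201240, minus strand: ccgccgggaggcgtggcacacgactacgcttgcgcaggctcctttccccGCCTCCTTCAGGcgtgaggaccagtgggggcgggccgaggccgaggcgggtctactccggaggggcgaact

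In these stretches the longer match begins 33 bases before the start of Rab2b, 84 before that of Rab32 and 111 before that of Rab12. Counted within the matched letters alone, the match of Rab2b and that of Rab12 each hold 1 CpG, and the match of Rab32 holds 0. At all 3 genes the last C of the match is followed by G, so a further CpG spans the end of each match. The Rab12 stretch has 13 CpG, the Rab2b stretch 8 and the Rab32 stretch 4. The longer match was present in 9 of the 60 Rab windows (15.0%), against 9.88% of all windows, and in 3 of the 6 Rab windows with a WT summit, against 34.0% of the 1549 such windows of all genes. The shorter string was present in 6 of the 60 Rab windows (10.0%), against 3.53% of all windows. As it was picked after these windows had been seen, the difference is no test. Of the 52 Rab windows with no summit in any list, 5 held the longer match (9.62%, all genes 7.76%). The shorter string was in 3 of them (5.77%, all genes 2.76%). The stretches of Rab29, Rab4b and Rab42 hold neither string; the printed Rab29 stretch stops short of its summit. The median Rab window held 19.5 CpG (range 3 to 45), against 13.0 over all windows. A match describes letters in a window and nothing about the factor.

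Each list gives a fold enrichment, the ratio of the fragment count over the summit to the local background as the authors' peak caller wrote it, and a −log10 q. The fragment count (pileup) was solved from the deposited fold and −log10 p, and it is given here beside the fold because the fold also moves with the background. Rab2b, a Rab of the ER to Golgi route, had at its start, chr14:52279192-52279717, the WT region of highest −log10 q in the family, with 436 in WT, 514 in TKO and 308 in SKO, beyond the range in which the pileup was solved. The fold there was 31.4, 41.4 and 28.1 in the same order. The region was in all 3 lists, the TKO list gave its highest fold, and other Rab regions had higher folds in each list.

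Rab32, which serves lysosome-related organelles such as the melanosome, had 1 region in each list, at its start (chr10:10558037-10558509). Its pileup was 109 fragments in WT, 86 in TKO and 99 in SKO, and its fold was 39.9, 19.5 and 21.5. The WT fold was the highest of the 197 WT Rab regions, at a local background of 1.76 fragments in WT against 3.46 in TKO and 3.66 in SKO; the pileups differed less than the folds.

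Rab12, linked to traffic from recycling endosomes to lysosomes, had a start region at chr17:66519677-66519985 with pileups of 50 in WT, 36 in TKO and 43 in SKO. The folds were 12.2, 6.13 and 13.2, lowest in TKO, where the local background was also highest (5.04 fragments against 3.17 in WT and 2.33 in SKO). Rab29, also known as Rab7l1 and tied to LRRK2 at the Golgi and lysosome, had pileups of 226, 186 and 183 at its start (chr1:131866993-131867502) and folds of 27.0, 25.6 and 22.1. Rab4b, a Rab of early and recycling endosomes, had pileups of 77, 72 and 45 and folds of 8.02, 9.21 and 8.13 at its start (chr7:27178891-27179206). Rab42 had pileups of 31, 30 and 24 and folds of 7.21, 4.44 and 6.26 (chr4:132302873-132303852). These 6 starts were bound in all 3 lists.

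A summit in a start window was called in 1 list alone at 2 genes. Rab14, which acts between the Golgi and endosomes, had no region in WT or TKO and 1 in SKO, 15 bases before its start, with a pileup of 14 and a fold of 4.50 (chr2:35200931-35201485). Its stretch above holds the longer match on the opposite strand. Rab11a, the main Rab of the recycling endosome, had no region in WT or SKO and 2 in TKO, of which the one 9 bases past the start (chr9:64737695-64737926) had a pileup of 9, a fold of 2.88 and a −log10 q of 1.55. The Rab11a start was close to the threshold of the lists, whose lowest −log10 q was 1.30 in WT and TKO and 1.31 in SKO.

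Across the family, 53 of the 59 Rab genes (89.8%) had a WT region, against 78.5% of all protein-coding genes (17188). The median Rab gene had 3 WT regions and the median protein-coding gene 2. Rab genes were also longer, with a median of 23.2 kb against 17.1 kb; per 100 kb of gene and flanks they held 5.98 WT regions against 4.17. Rab18, Rab22a, Rab27b and Rab38 had no region in any list. Of the WT Rab regions, 95 of 197 (48.2%) had the summit inside the gene, and 103 also lay within 10 kb of, or in, another protein-coding gene, so 94 (47.7%) had a Rab gene as their only such gene. No WT region belonged to more than 1 Rab gene.

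**Figure D1:**
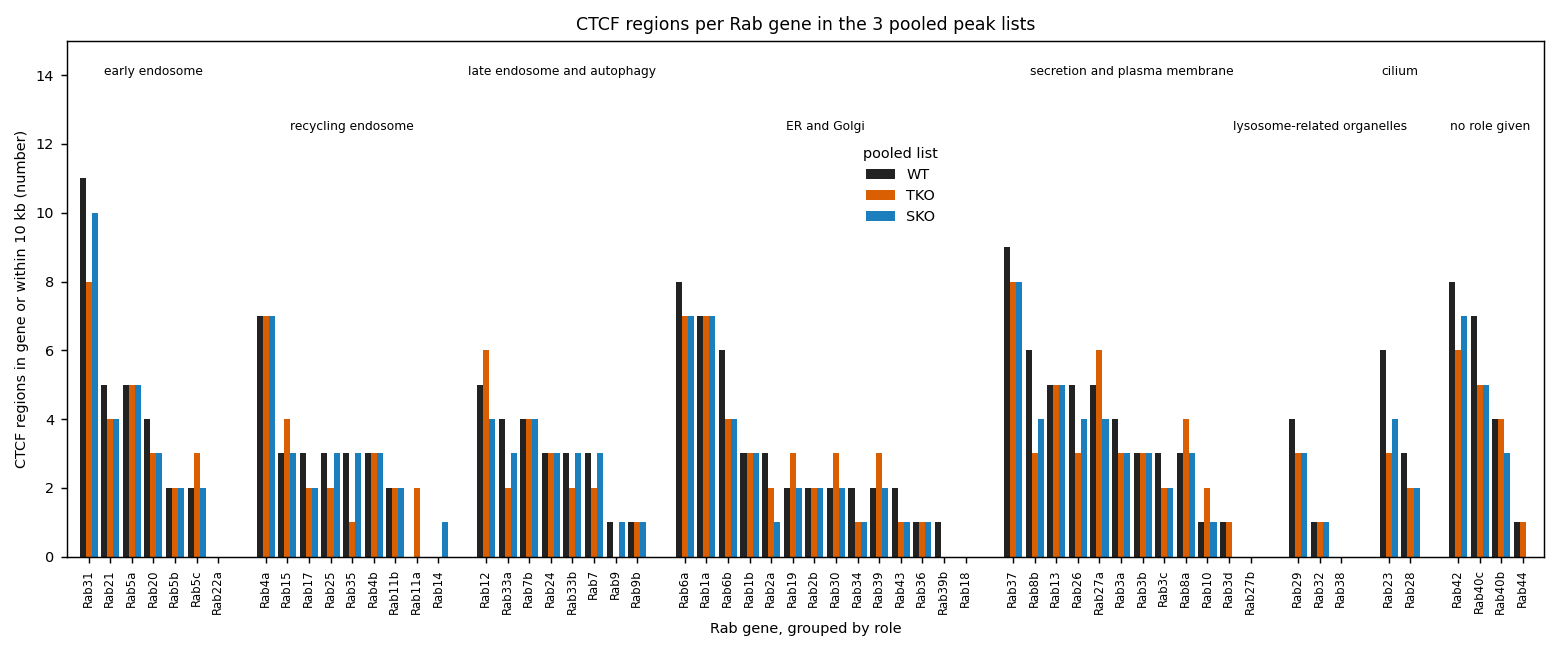
Bars give the number of CTCF regions inside each Rab gene or within 10 kb of it (vertical axis) in the pooled WT, TKO and SKO lists, for the 59 Rab genes grouped by role (horizontal axis). Rab31 had the most, with 11, 8 and 10, and 4 genes had none.

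The median fold of the Rab regions was below that of each list as a whole. It was 8.67 in WT (quartiles 5.14 and 14.3, range 2.49 to 39.9), 9.23 in TKO (5.97 and 14.1, 2.76 to 53.5) and 9.26 in SKO (5.55 and 15.5, 2.60 to 41.8), against 10.0, 9.84 and 10.5 for all regions. The median pileup of the Rab regions was 39.0 fragments in WT (8 to 262), 39.5 in TKO (9 to 237) and 37.0 in SKO (7 to 186). The median width was 373, 380 and 413 bp, against 364, 363 and 374 bp over all regions.

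Of the 224 merged Rab regions, 142 (63.4%, 95% Wilson interval 56.9 to 69.4) were in all 3 lists, against 67.0% of merged regions near any protein-coding gene and 66.3% of all merged regions. WT alone held 32 (14.3%, 10.3 to 19.5, against 12.0% and 12.7%), TKO alone 17 (7.59%, 4.79 to 11.8, against 4.44% and 4.30%) and SKO alone 9 (4.02%, against 3.46% and 3.34%). WT and TKO shared 9 that SKO lacked (4.02%, against 7.02% near genes and 7.18% of all), and WT and SKO shared 13 that TKO lacked (5.80%, against 4.34% and 4.51%). Both knockouts shared 2 that WT lacked (0.893%, against 1.67% and 1.64%). The intervals cover only counting error over regions taken as independent, and hold no spread between replicates or lines. The libraries were amplified by PCR, and molecular identifiers are not mentioned. The TKO-alone interval lies just above the background, and the other intervals printed hold theirs. TKO alone is 1 of several classes looked at, and the background is not matched for strength. At the shares of all TKO regions of like −log10 q, the Rab regions without a WT partner, in SKO or not, would be 16.1. There were 19.

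The 6 strongest WT regions of the family by −log10 q were all in the 3 lists, as nearly all WT regions of such strength were. Of the 7107 WT regions in the strongest of 10 equal classes by −log10 q, 0 lacked a TKO partner and 1 lacked an SKO partner. Beside the starts of Rab2b and Rab29, the 6 regions lay by Rab4b, Rab35, Rab2b and Rab17. The Rab4b region at chr7:27159740-27160321, 8.41 kb from the gene, had pileups of 251 in WT, 237 in TKO and 186 in SKO and folds of 30.0, 22.8 and 28.1. Rab35 controls recycling to the plasma membrane and actin at the cell surface; its region at chr5:115653016-115653432 had pileups of 262, 228 and 163 and folds of 23.8, 26.8 and 27.4. The pileup was lowest in SKO while the fold was highest there, with a local background of 4.99 fragments in SKO against 10.0 in WT.

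The other region of Rab2b, at chr14:52257777-52258213, 3.77 kb from the gene, had folds of 30.5, 53.5 and 41.8, of which the TKO value was the highest of all Rab regions in that list; its pileup was 215 in WT and 166 in SKO. Rab17, a Rab of transcytosis in polarised epithelium, had pileups of 218, 182 and 147 and folds of 21.4, 17.0 and 26.1 at chr1:90973214-90973682. The pileup was highest in WT and lowest in SKO at each of these regions where all 3 were solved. The pileups are not scaled for depth, and the lowest background of the SKO list was 0.779 of that of WT. The regions were also chosen by their WT −log10 q, which favours a high WT pileup.

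Without the TET enzymes, 45 of the 197 WT Rab regions (22.8%, 17.5 to 29.2) had no overlapping TKO region, and 34 of the 59 genes held at least 1 of them. The background was 19.0% of all WT regions and 18.1% of those near protein-coding genes, both inside the interval. In the other direction 19 of 170 TKO Rab regions (11.2%, 7.27 to 16.8), at 15 genes, had no WT partner, against 7.49% of all TKO regions and 7.63% near genes; both lie inside the interval. Rab genes with fewer regions in TKO than in WT numbered 26, and 10 had more. The whole TKO list was also shorter, with 62238 regions against 71075 in WT. These counts of genes were not made over all protein-coding genes.

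Without the methyltransferases as well, 41 of the 197 WT Rab regions (20.8%, 15.7 to 27.0), at 32 genes, had no SKO partner, against 21.9% of all WT regions and 21.1% near genes. Of the 167 SKO Rab regions, 11 (6.59%, 3.72 to 11.4), at 10 genes, had no WT partner, against 6.59% and 6.73%. Both shares were near the background. Rab genes with fewer regions in SKO than in WT numbered 26, and 1 gene, Rab14, had more. The whole SKO list was also shorter, with 59372 regions against 71075 in WT, and the counts of genes were again not made over all genes.

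Between the knockouts, 26 of 170 TKO Rab regions (15.3%, 10.7 to 21.5) had no SKO partner, against 14.5% of all TKO regions and 14.3% near genes, and 22 of 167 SKO Rab regions (13.2%, 8.86 to 19.1) had no TKO partner, against 10.4% of all SKO regions and 10.2% near genes. These counts share the lists of the comparisons above and are set beside them only as values. Within the family, 19 genes had the same number of regions in all 3 lists, and 11 had every merged region in all 3. Neither count was made over all genes. These 11 were Rab4a with 7 regions, Rab7b with 4, Rab1b, Rab24, Rab3b and Rab4b with 3 each, Rab11b and Rab2b with 2 each, and Rab32, Rab36 and Rab9b with 1 each.

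Rab regions without a partner were weak ones. The median fold of WT Rab regions with no TKO partner was 4.38, against 11.0 for those with one, and for SKO it was 4.38 against 10.8. The highest fold of a WT Rab region without a partner was 8.99 for TKO, at Rab8b, and 10.7 for SKO, at Rab6b. TKO Rab regions with no WT partner had a median fold of 3.74 against 10.1, and SKO Rab regions with none 4.50 against 9.90. Regions without a partner were also weak over the whole lists. Their median fold was 5.08 for WT without TKO, 5.11 for WT without SKO, 4.61 for TKO without WT and 4.65 for SKO without WT. Of the 94 WT Rab regions above the median −log10 q of the WT list, 0 lacked a TKO partner and 0 lacked an SKO partner; over all 35519 WT regions above it, 126 (0.355%) lacked a TKO partner and 181 (0.510%) an SKO partner.

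Divided into 10 equal strength classes by −log10 q, the WT list held 32 Rab regions in class 1, the weakest, and 23 of these (71.9%) had no TKO partner, against 70.4% of all regions of that class. In class 2 it was 11 of 22 (all regions 55.2%), in class 3 it was 7 of 15 (46.7%, all 36.3%) and in class 4 it was 4 of 20 (all 19.2%). For SKO the counts in these classes were 23 of 32 (all 76.9%), 10 of 22 (45.5%, all 62.1%), 6 of 15 (40.0%, all 43.4%) and 1 of 20 (5.00%, all 24.6%). With the share of all regions in each class, the Rab regions would hold 45.3 without a TKO partner, where 45 were counted, and 51.5 without an SKO partner, where 41 were counted. For TKO regions with no WT partner the same sum was 16.1, where 19 were counted, and for SKO regions 14.6, where 11 were counted.

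**Figure D2:**
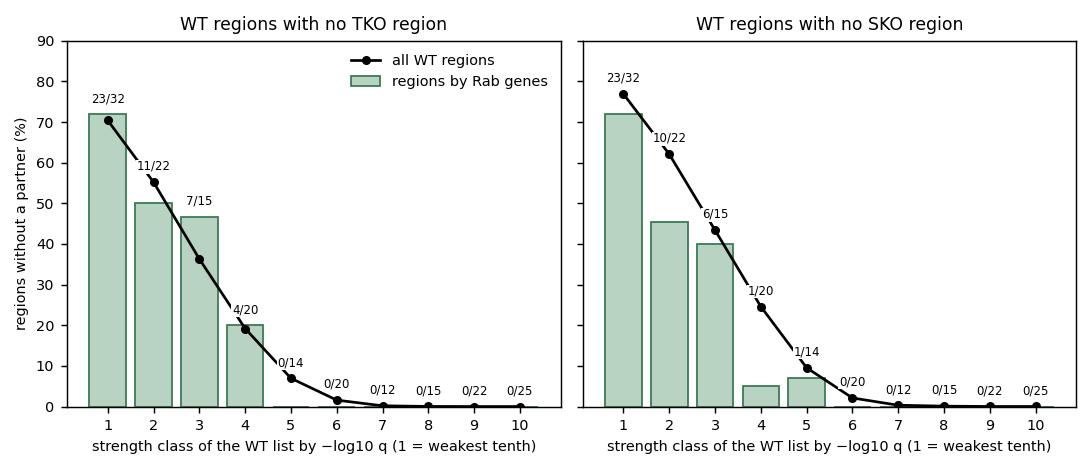
Bars give the percent of WT Rab regions without a TKO (left) or SKO (right) region in each of 10 equal strength classes of the WT list by −log10 q, weakest first, with the counts above; the line gives the same over all WT regions. In classes 6 to 10 no Rab region lacked a partner, and in classes 1 to 5 the bars for SKO stand below the line.

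At Rab regions present in all 3 lists the pileup was mostly smaller in the knockouts, as it was over all regions. The ratio of TKO to WT pileup had a median of 0.902 over 140 Rab regions (quartiles 0.776 and 1.00, range 0.474 to 1.90), with 102 below 1 and 33 above, against a median of 0.892 over 51261 regions (0.765 and 1.04). The ratio of SKO to WT had a median of 0.752 over 141 Rab regions (0.623 and 0.908, range 0.271 to 2.00), with 123 below 1 and 16 above, against 0.733 over 51290 regions (0.609 and 0.870). The lowest solved background of each list was 1.76 fragments in WT, 1.82 in TKO (1.04 of WT) and 1.37 in SKO (0.779 of WT). Its relation to sequencing depth was not tested. The SKO pileups were low together with the background of that list, whose part in the ratio was not tested.

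**Figure D3:**
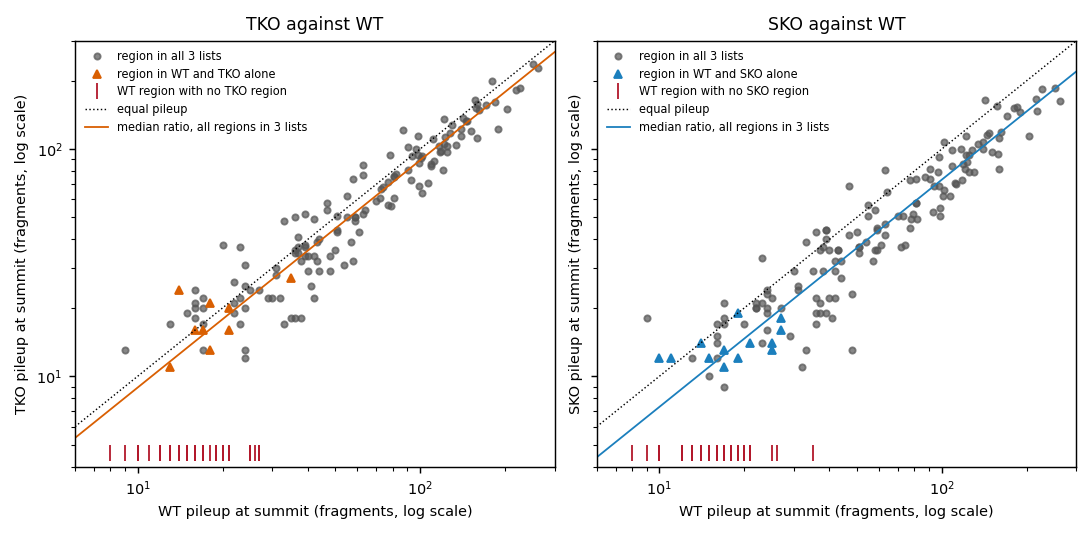
Each point is a Rab region, with its WT pileup in fragments (horizontal, log scale) against its TKO (left) or SKO (right) pileup (vertical, log scale); ticks at the bottom are WT regions with no partner, and lines show equal pileup and the median ratio over all regions in 3 lists. The ticks all lie at low WT pileup, and most points lie below the line of equal pileup.

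Some regions stood away from these medians and were picked after their values had been seen. Rab6a, which drives retrograde traffic to the Golgi, had a region at chr7:100610657-100611042 with a pileup of 38 in WT, 18 in TKO and 37 in SKO, and Rab31 had one at chr17:65643671-65643881 with 20, 38 and 17. Rab6b had one at chr9:103120248-103120606 with 48, 29 and 13, the lowest SKO ratio. Rab33b, an autophagy and Golgi Rab, had folds of 13.6, 27.0 and 18.9 and pileups of 63, 77 and 81 at chr3:51481060-51481439.

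The early endosome Rabs, which govern fusion and sorting of newly internalised vesicles, held 29 WT, 25 TKO and 26 SKO regions over 7 genes. Of their 34 merged regions, 20 (58.8%, against 66.3% of all merged regions) were in all 3 lists. Of the 29 WT regions, 7 had no TKO partner and 7 no SKO partner, where the shares over all WT regions were 19.0% and 21.9%. Rab31, which acts between the trans-Golgi network and endosomes, had the most regions of the family, 11 in WT, 8 in TKO and 10 in SKO. The gene spans 121 kb, against a median of 23.2 kb over Rab genes. Its strongest by −log10 q, inside the gene at chr17:65706171-65706675, had pileups of 93, 73 and 53 and folds of 20.0, 13.7 and 9.01, both highest in WT and lowest in SKO.

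Rab31 also held a pair of regions in WT and SKO that TKO lacked. The region at chr17:65747679-65747981 had pileups of 27 and 18 and folds of 7.05 and 6.67, and that at chr17:65694727-65694955 had pileups of 17 and 11 and folds of 5.34 and 4.55. Both lie inside the gene. Rab5b and Rab5a, which organise the early endosome through effectors such as EEA1, had the only regions of the family shared by the knockouts and missing from WT. That of Rab5b, 1.27 kb from the gene at chr10:128697455-128697718, had a pileup of 25 and a fold of 7.39 in TKO and 14 and 4.84 in SKO; that of Rab5a had 12 and 3.69, then 15 and 3.70.

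Rab5a also had a WT-only region with a pileup of 17 and a fold of 6.53 (chr17:53492256-53492525), so it held 5 regions in each list over 6 merged regions. Rab20, a Rab of phagosomes and macropinosomes, had a WT-only region with a pileup of 19 and a fold of 5.35. Rab21, which handles integrin traffic, had a region in WT (fold 6.16) and TKO (5.40) and none in SKO, and another in SKO alone (4.87). It counted 5, 4 and 4 regions over 7 merged ones, so its TKO and SKO regions were equal in number and not all at the same positions.

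The recycling endosome Rabs return receptors to the surface. Over 9 genes they held 24 WT, 23 TKO and 24 SKO regions. Of 32 merged regions, 18 (56.2%, against 66.3% of all merged regions) were in all 3 lists. Rab4a, which mediates fast recycling, had 7 regions in each list and all 7 merged regions in all 3. Rab11b had 2 in each and Rab4b 3 in each, also all shared. Rab35 had 3, 1 and 3: TKO lacked 2 of its WT regions, and SKO had 1 of its own inside the gene (chr5:115646184-115646490) with a pileup of 14 and a fold of 6.28, the highest fold among SKO-only Rab regions.

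Rab15, which slows recycling from the early endosome, had 2 TKO-only regions, with folds of 4.97 and 4.03, and 1 SKO-only region with 4.57. Rab17 had a WT-only region with a fold of 6.13. Rab25, an epithelial relative of Rab11, had a region in WT (3.30) and TKO (3.84) that SKO lacked and another in SKO alone (3.00). All of these regions of Rab15, Rab17 and Rab25 had pileups of 9 to 21 fragments.

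The late endosome and autophagy Rabs deliver cargo to lysosomes. Their 8 genes held 24, 20 and 22 regions. Of the 24 WT regions 6 lacked a TKO partner (all WT regions 19.0%) and 2 an SKO partner (all 21.9%). Of the 26 merged regions, 18 (69.2%, all merged regions 66.3%) were in all 3 lists and 4 in WT and SKO alone (all 4.51%). Rab7, the central Rab of late endosomes, had such a region with pileups of 17 and 13 and folds of 4.94 and 4.20. Rab33a, an X-linked Rab, had another at chrX:48508989-48509263 with a pileup of 19 in both lists and folds of 6.42 and 8.45. Rab33b and Rab9, which returns receptors from late endosomes to the Golgi, held the remaining ones: Rab9 had 1 region in WT, 0 in TKO and 1 in SKO.

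Rab33a also held the WT-only region of highest −log10 q, inside the gene at chrX:48519825-48520118, with a pileup of 21 over a background of 1.76 and a fold of 7.98. Rab39b, an X-linked Rab of neurons, had 1 WT region and none in the knockouts. Of the 7 WT Rab regions on the X chromosome 4 (57.1%, 25.0 to 84.2) lacked a TKO partner, against 24.6% of all X regions, and 2 lacked an SKO partner (28.6%, against 24.9%). The TKO interval lies just above its background and rests on 7 regions.

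Rab12 had 5 regions in WT, 6 in TKO and 4 in SKO. The 2 TKO-only regions lay inside the gene: that at chr17:66508078-66508341, with a pileup of 18 and a fold of 5.99, had the highest −log10 q of the TKO-only Rab regions, and the other had 14 and 5.32. Rab7b, a relative of Rab7 in traffic between endosomes and the trans-Golgi network, had 4 regions in each list, and Rab24, linked to autophagy, had 3 in each.

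The Rabs of the ER and Golgi were the largest role group, with 14 genes and 41, 37 and 33 regions. Of 44 merged regions, 31 (70.5%, against 66.3% of all merged regions) were in all 3 lists. Of the 41 WT regions 7 lacked a TKO partner (all WT regions 19.0%) and 8 an SKO partner (all 21.9%). Of the 37 TKO regions 4 lacked a WT partner (all TKO regions 7.49%), and of the 33 SKO regions 0 did (all SKO regions 6.59%). Rab6b, a neuronal relative of Rab6a, had the region of highest −log10 q in the family that was missing from a knockout list. It lay 3.02 kb from the gene at chr9:103108490-103108793, with a pileup of 35 and a fold of 10.7 in WT and 27 and 7.30 in TKO, and no region in SKO.

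Rab6a had 8, 7 and 7 regions, and its strongest by −log10 q, chr7:100645154-100645608, had pileups of 134, 104 and 105 and folds of 12.5, 13.2 and 24.5. The SKO fold was the highest although the WT pileup was, with backgrounds of 9.78 in WT, 6.93 in TKO and 3.33 in SKO. Rab1a, which acts in transport from ER to Golgi, had 7 regions in every list over 8 merged ones. One of them, inside the gene at chr11:20207756-20208093, was in WT (pileup 21, fold 7.41) and SKO (14 and 5.43) and not in TKO.

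Rab2a, the close relative of Rab2b, had 3, 2 and 1 regions; that at chr4:8608991-8609268 was in WT (fold 5.08) and TKO (3.41) alone. Both regions of Rab2b itself were in all 3 lists. Rab30 had 2, 3 and 2 regions, the extra one in TKO with a pileup of 15 and a fold of 3.86.

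The Rabs of secretion and the plasma membrane, which drive exocytosis and polarised delivery, held 45, 40 and 37 regions over 12 genes. Of 54 merged regions, 32 (59.3%, against 66.3% of all merged regions) were in all 3 lists. Of the 45 WT regions 11 lacked a TKO partner (all WT regions 19.0%) and 11 an SKO partner (all 21.9%), and 6 of 40 TKO regions (all 7.49%) and 3 of 37 SKO regions (all 6.59%) lacked a WT partner. Rab37, linked to secretory granules of mast cells, had 9, 8 and 8. Its region of highest −log10 q, chr11:115160851-115161306, had pileups of 145, 133 and 115 and folds of 16.8, 16.9 and 34.8.

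Rab37 also held regions of several other kinds. A WT-only one had a pileup of 16 and a fold of 6.17 (chr11:115143408-115143767), one in WT and TKO had pileups of 14 and 24 and folds of 3.02 and 7.03, and an SKO-only one had a fold of 4.54. Rab8b, which with Rab8a serves exocytosis and the cilium, had 6, 3 and 4 regions, and 2 of its 6 merged regions were in all 3 lists. At chr9:66884804-66885203, inside the gene, the pileup was 27 in WT and 16 in SKO and the fold 8.99 and 7.18, with no TKO region. At chr9:66920571-66920810, 0.953 kb from the gene, the reverse held: 21 in WT and 20 in TKO, folds of 4.96 and 6.53, and no SKO region.

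Rab27a, which docks secretory lysosomes and melanosomes, had 5, 6 and 4 regions, with 2 in TKO alone (folds 5.16 and 4.12, pileups 15 and 20). Rab10, which delivers GLUT4 vesicles, had 1, 2 and 1, the extra TKO region lying inside the gene with a pileup of 16 and a fold of 6.03. Rab3a, the Rab of synaptic vesicles, had a WT-only region with a pileup of 25 and a fold of 5.24. Rab26, tied to secretory granules, had a WT-only region with 26 and 5.44 and an SKO-only one with 9 and 3.30, and Rab13, a Rab of tight junctions, had an SKO-only one with 9 and 3.45. Rab13 counted 5 regions in each list over 7 merged ones.

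The smaller groups were those of lysosome-related organelles (Rab29, Rab32 and Rab38; 5, 4 and 4 regions) and of the cilium (Rab23 and Rab28; 9, 5 and 6). Rab23, a brake on Hedgehog signalling, had 6, 3 and 4. It held a WT-only region inside the gene at chr1:33728187-33728439 with a pileup of 20 and a fold of 5.54, and one in WT and SKO with pileups of 25 and 14. Of the 9 merged cilium regions, 5 (55.6%, against 66.3% of all merged regions) were in all 3 lists.

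Rab40b, Rab40c, Rab42 and Rab44, given no role here, held 20, 16 and 15 regions. Of 20 merged regions, 14 (70.0%, against 66.3% of all merged regions) were shared by all 3 lists. Rab42 had 8, 6 and 7; its strongest by −log10 q, chr4:132295713-132296374, had pileups of 59, 50 and 45 and folds of 11.5, 13.2 and 9.87. Rab40c, part of a ubiquitin ligase, had 7, 5 and 5. One region of Rab42 was in WT (pileup 25, fold 6.65) and SKO (13 and 3.40) alone. Rab40b and Rab44 each had one in WT and TKO alone, with folds of 4.96 and 6.03 for Rab40b and 6.17 and 5.40 for Rab44.

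**Figure D4:**
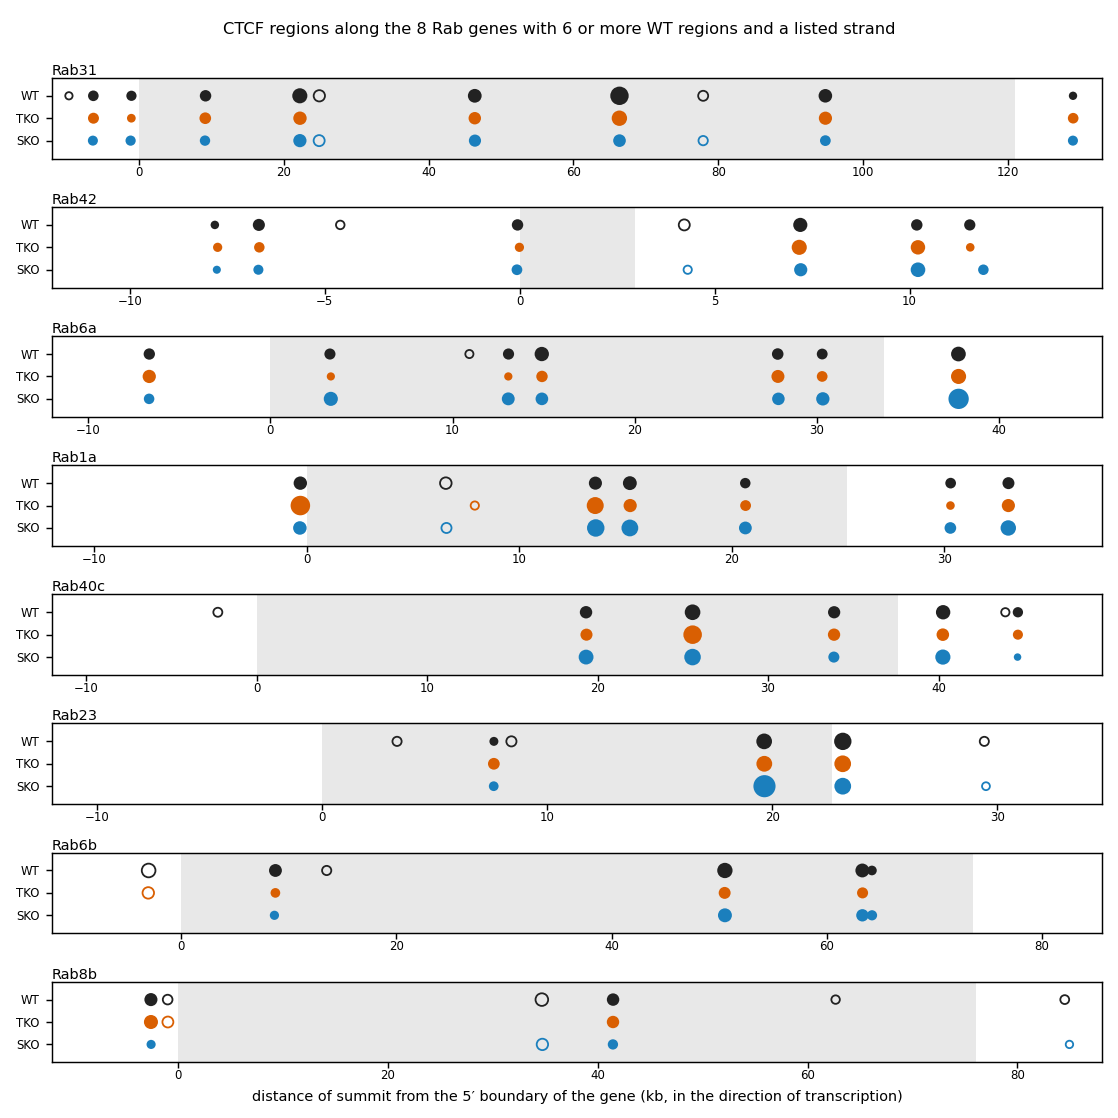
Circles are CTCF regions along the 8 Rab genes with at least 6 WT regions and a strand in the promoter table, by distance of the summit from the 5′ boundary in kb (horizontal) and by list (rows); the area grows with the fold, filled circles are regions present in all 3 lists, open ones are not, and grey is the gene. Rab31 shows 2 regions inside the gene drawn open in the WT and SKO rows, and Rab6b 1 region before the gene drawn open in the WT and TKO rows.

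Position within the locus was compared next. Of the WT regions inside a Rab gene, 26 of 95 (27.4%, 19.4 to 37.1) lacked a TKO partner, and of those in the flanks 19 of 102 (18.6%, 12.3 to 27.3), beside 19.0% of all WT regions. For SKO the counts were 22 (23.2%) and 19 (18.6%), beside 21.9%, and the intervals overlapped. These backgrounds are of all WT regions and were not split by position. Within 1 kb of a listed start lay 18 of the 165 WT regions of Rab genes with a start in the table (10.9%), 18 of 141 in TKO (12.8%) and 14 of 140 in SKO (10.0%). Over all regions, those far from any gene included, it was 3759 of 71075 in WT, 3554 of 62238 in TKO and 3499 of 59372 in SKO. Of the 18 TKO Rab regions near a start, 5 (27.8%, 12.5 to 50.9) had no WT partner, against 12.7% of all TKO regions within 1 kb of a start. Of the 18 WT Rab regions, 5 (27.8%) had no TKO partner and 6 (33.3%) no SKO partner, against 17.4% and 20.5%. Of the 14 SKO Rab regions, 2 (14.3%) had no WT partner, against 14.9%, and 1 (7.14%) no TKO partner, against 16.2%. Of the 18 TKO Rab regions, 5 (27.8%) had no SKO partner, against 17.4%. Each interval over so few regions is wide.

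The 10 kb limit set which regions were taken. Just inside it lay a strong region of Rab19, 9.864 kb away in WT with folds of 25.6, 22.7 and 15.8, and one of Rab37, 9.779 kb away with 20.3, 15.0 and 17.8. Just outside lay one by Rab29, 10.07 kb away in WT with folds of 18.7, 10.9 and 19.5.

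The other genes of the Rab cycle, 99 in a list of delivery factors, exchange factors, GTPase activators and effectors, held 495 WT, 433 TKO and 417 SKO regions by the same rule. Of the WT regions 97 (19.6%) lacked a TKO partner and 99 (20.0%) an SKO partner, and 36 TKO regions (8.31%) and 21 SKO regions (5.04%) lacked a WT partner, beside backgrounds near genes of 18.1%, 21.1%, 7.63% and 6.73%. The corresponding Rab shares were 22.8%, 20.8%, 11.2% and 6.59%. Exchange factors had 31 of 156 WT regions without a TKO partner (19.9%) and 33 without an SKO partner (21.2%). GTPase activators had 44 of 186 (23.7%) and 40 (21.5%), effectors 21 of 143 (14.7%) and 25 (17.5%), and the delivery and prenylation genes 1 of 10 in both. TKO regions without a WT partner were 6 of 129 for exchange factors (4.65%), 16 of 159 for GTPase activators (10.1%), 12 of 134 for effectors (8.96%) and 2 of 11 for the delivery genes (18.2%). SKO regions without one were 1 of 123 (0.813%), 12 of 159 (7.55%), 8 of 126 (6.35%) and 0 of 9 in the same order.

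Among single genes of these groups, Rabgap1l, a GTPase activator, had 20 WT, 19 TKO and 19 SKO regions, more than the 11, 8 and 10 of Rab31. Rabgap1l spans 574 kb and Rab31 121 kb. Myrip, which links Rab27a to myosin, had 16, 12 and 14, with 4 WT regions lacking a TKO partner and 3 an SKO partner. Dennd5a, an exchange factor, had 8, 5 and 5, with 4 and 3; Gapvd1, an exchange factor for Rab5, had 7, 4 and 3, with 3 and 4. Chm, which presents Rabs for prenylation, had 1 region in WT and 0 in each knockout.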

How the data were processed

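CTCF ChIP and input were sequenced in WT, TKO and SKO cells. Per the submitters' processing notes, the tools were MACS2 2.1.2, Bowtie2 2.3.4, SAMtools 1.9, FastQC 0.11.7, deepTools 3.5.0 and bedtools 2.25.0, with build mm10; the sources used here give no commands. Per the labels, each deposited peak list comes from 3 pooled replicates, and the fold enrichment in it is the authors' ratio at the summit. The deposited rows hold −log10 p and −log10 q as well, with q at most 0.05.

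Rows with the same interval were joined (73125 to 71075 in WT, 64121 to 62238 in TKO, 61027 to 59372 in SKO). A partner overlaps by at least 1 bp. Pileup and background were solved as (pileup + 1)/(background + 1) = fold and a Poisson tail equal to the deposited p; 70618 of 70619 WT, 61934 of 61952 TKO and 59141 of 59145 SKO regions tried gave whole pileups within a relative tolerance of 1e-04. Wilson 95% intervals were used. Depth per sample was not analysed here. Gene ends came from RefSeq without exons, so exons and introns were not told apart. Overlap and pileup steps were tested on simulated data (Python 3.11.15, scipy 1.17.1).

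The family, roles, pathway lists and rules were chosen with earlier results of these data known. Every Rab gene could be named with its counts; positions and values were given for the 8 highest −log10 q of each class other than the one in all 3 lists, the 6 highest in WT, the strongest region of genes with at least 8, and start-window summits; up to 4 pathway genes per group were named by regions without a partner. Alternatives varied overlap, −log10 q and the window.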

Additional observations from a re-analysis of the deposited data

How the results depend on the processing

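Of 45 alternative values for 8 results, 38 stayed within the counting interval of the reported share or within 1.5 times the reported count, and 7 did not. The limit for the count of Rab genes with a WT region, 53 as reported, was loose. A fall to 40 lay within it, and with 59 Rab genes in all its upper side could not be passed. All 7 came from keeping Rab regions with a −log10 q of at least 5 while the other list was left whole, which by construction removes weak regions: WT regions without a TKO partner were then 14.6% and without an SKO partner 12.9%, TKO and SKO regions without a WT partner 5.19% and 2.74%, TKO regions without an SKO partner 9.74%, SKO regions without a TKO partner 7.53%, and merged regions in all 3 lists 74.7%. With that minimum in both lists the shares were 17.5%, 19.9%, 9.09%, 6.16%, 15.6%, 10.3% and 66.8%. The counts followed the window: with summits inside the gene only, 26 WT Rab regions lacked a TKO partner and 22 an SKO partner, and with 50 kb flanks 98 and 103. Rab genes with a WT region then numbered 40 and 59. None of these alternative shares and counts was made over all regions or all genes. They therefore have no background and do not show whether Rab regions differ from others. No paired analysis was possible because peaks were called on pooled replicates, and for the same reason no replicate could be left out. The weakest Rab regions rest on 8 fragments at the summit in WT, 9 in TKO and 7 in SKO.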
